A study of Mus musculus with 6 samples.

Results

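Glycolysis and the hypoxia response were followed through a list of 36 gene names, chosen by name with earlier results of these data known. The arrays carried 35 of them, out of 34650 gene names in all, with 62 of 55681 probes. The remaining name, Pkm2, is an older symbol of Pkm, which is among the 35. By role, the 35 are 18 glycolytic enzymes, 4 transporters of glucose or lactate, 6 kinases that switch glucose use (the Pdk and Pfkfb families), 4 regulators of the Hif pathway and 3 classic Hif target genes.

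RNA was compared between Spred1 knockout (KO, 3 arrays) and wildtype (WT, 3 arrays) mice of strain C57BL/6. All 6 samples were bone marrow cells sorted as CD48-KSL, a gate on c-Kit and Sca-1 without CD48 or lineage markers, which enriches for haematopoietic stem and progenitor cells. Spred1 dampens the Ras-ERK cascade, which relays growth factor signals, and the comparison asks what its loss does to transcripts of these cells. The allele, its deleted part, the age of the mice and the number of animals behind each sample are not stated in the labels, so the p-values measure only the spread between these samples, which may be technical. In bulk RNA of this kind, fewer cells of a type and less RNA per cell cannot be told apart.

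Glycolysis breaks glucose down to pyruvate in the cytosol, and lactate dehydrogenase turns pyruvate into lactate where it is not passed on to mitochondria. The Hif alpha subunits, Hif1a and Epas1, are marked for degradation by prolyl hydroxylases of the Egln family when oxygen is plentiful. In low oxygen they persist, pair with Arnt and raise the transcription of glycolytic enzymes, glucose transporters, Pdk1, Vegfa and Bnip3. Haematopoietic stem cells of the mouse are known to lean on glycolysis, and Hif1a, Pdk2 and Pdk4 have been tied to that state. Hif1a is controlled largely at the level of its protein, which arrays do not measure.

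Levels are log2 processed intensities from which the 75th percentile of each array was subtracted, and a level of 0 equals that percentile. They can be set side by side between arrays for 1 probe, not between probes. Each gene is represented by its brightest probe unless another is named. All 35 genes were measured, each well above background on all 6 arrays, so none entered through 1 genotype alone. The arrays correlated with each other at 0.988 to 0.995 over all features. The gate genes Kit (4.94, 5.03 and 5.08 in KO, against 5.32, 5.10 and 4.89 in WT) and Ly6a were bright in every sample, and Cd48 was measured too. Of 3 Spred1 probes, 1 was brighter in KO by 2.44 ± 0.16 (SE, limma adjusted p = 0.0133 over 27808 probes), 1 was dimmer on all KO arrays (-0.98 ± 0.09, adjusted p = 0.0543) and 1 overlapped between the genotypes (-0.14 ± 0.10). Since the deleted part is not given, none of them checks the labels. The sample that stood apart was WT replicate 1, in which the summed level of 15 neutrophil genes, all of them measured, was 104 times the 75th percentile, against 346 to 450 in KO and 504 to 542 in the other WT samples. Lists of other cell types were measured in part. Summed levels were 28.3 to 34.8 in KO, against 21.4 to 35.7 in WT, for monocytes and macrophages (12 of 13 genes), and 44.2 to 48.2 in KO, against 36.0 to 70.7 in WT, for erythroid cells (8 of 10). They were 10.5 to 12.7 in KO, against 10.4 to 12.2 in WT, for B cells (4 of 8), and 17.6 to 20.6 in KO, against 17.0 to 19.3 in WT, for T and NK cells (5 of 8). Endothelial and stromal genes (5 of 7) summed to 17.2 to 21.9 in KO, against 13.9 to 17.7 in WT, with a median difference of 0.31, and megakaryocyte genes (6 of 7) to 20.2 to 25.7 in KO, against 18.3 to 23.4 in WT. Among the genes that were not well above background were Pax5, Ebf1, Cd3g, Cd8a, Klf1, Cdh5 and Col1a1. The part of these cells in the results was not tested.

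No member passed an adjusted p of 0.05 (limma, Benjamini-Hochberg over 19610 features), where 4 features of all tested did (0.0204%). At an unadjusted p of 0.05, 3 of the 35 stood out, Pfkl and Tpi1 lower in KO and Hk1 higher, against 12.2% of all features (5.12% lower and 7.06% higher). This share of members was no larger than the background. The direction was less even. The KO mean was below the WT mean for 25 of 35 members (71.4%), against 51.2% of all features, and the median difference was -0.08, against -0.01 over all features. All KO arrays lay below all WT arrays for 7 members, namely Pfkl, Tpi1, Eno1, Pkm, Ldha, Pdk3 and Bnip3, against a background of 10%. The opposite held for 1 member, Hk1, against 9.53%. The differences were small, and 30 of 35 were under 1.2-fold, as were 15566 of the 19610 features.

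**Figure D1:**
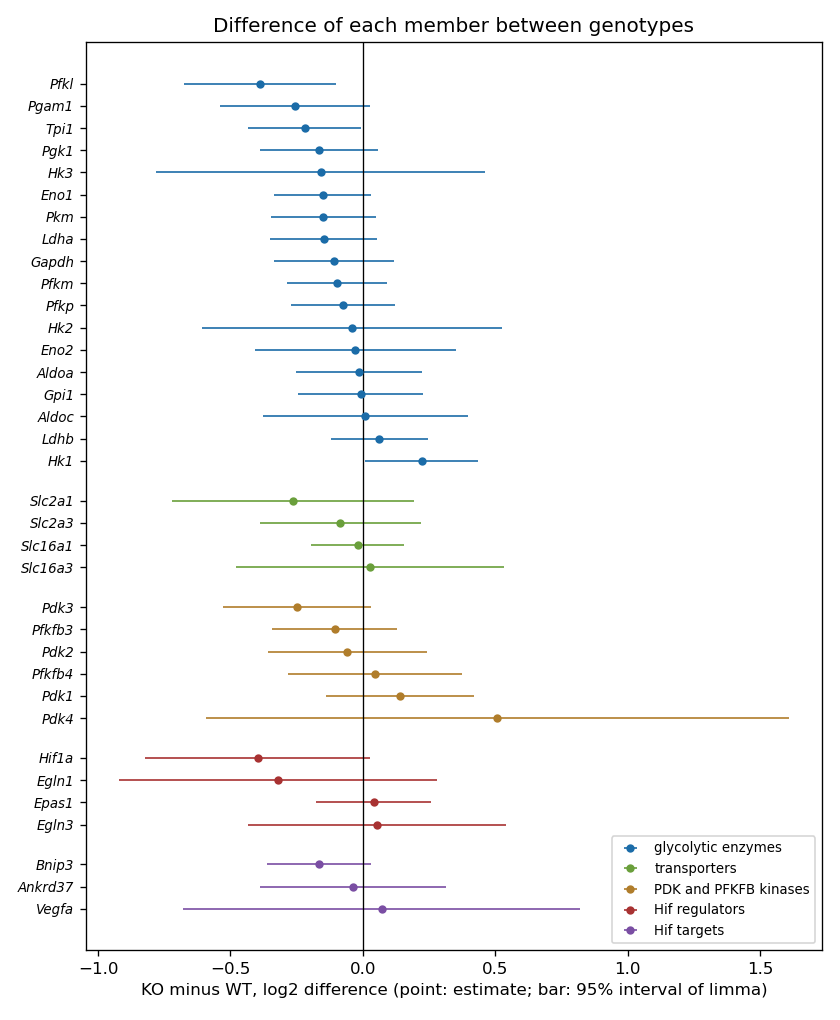
KO minus WT difference of the 35 members on the log2 scale, with the gene on the y axis and the colour giving its role; points are estimates and bars 95% intervals of limma. Most enzymes sit left of 0, between -0.39 for Pfkl and 0.22 for Hk1, and the bars of Pdk4, Vegfa and Egln1 are the widest outside the enzymes.

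The promoters of the members were read for a sequence tied to the hypoxia response. The list was drawn up from genes of that response, so an excess of the sequence is not independent of the choice. The core of the hypoxia response element, ACGTG on either strand, occurs in the RefSeq promoter windows (250 bases before to 50 after an annotated start, GRCm38.p6) of 23 of the 33 members in that table (69.7%). It occurs in windows of 21.8% of 27025 genes and of 28.5% of the 10298 genes measured here. A gene with more windows has more room for a match. Counted by window, 26 of 48 member windows hold it (54.2%), against 19.6% of all 32851 windows. All 6 Hif regulators and targets in the table hold it, as do 11 of 18 enzymes, all 3 transporters and 3 of 6 kinases. The member windows are rich in G and C (median 61.7%, against 60% for windows of measured genes and 52.7% for all windows), and the motif itself holds a CpG. A match is a stretch of letters and says nothing about binding. Windows of 4 members are printed to show where the core lies, 5′ to 3′ on the strand of the gene with each match in capitals, namely Hk1, Hif1a and Pgam1, which have the smallest p among members with a match, and Bnip3, a classic Hif target.
Hk1 promoter, chr10:62340372-62340671, - strand: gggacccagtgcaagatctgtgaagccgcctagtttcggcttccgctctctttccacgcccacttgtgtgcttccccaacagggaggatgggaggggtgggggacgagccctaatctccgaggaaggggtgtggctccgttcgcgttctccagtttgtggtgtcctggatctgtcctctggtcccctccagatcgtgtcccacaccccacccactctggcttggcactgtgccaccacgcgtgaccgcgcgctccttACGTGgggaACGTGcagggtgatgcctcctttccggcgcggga
Hif1a promoter, chr12:73907617-73907916, + strand: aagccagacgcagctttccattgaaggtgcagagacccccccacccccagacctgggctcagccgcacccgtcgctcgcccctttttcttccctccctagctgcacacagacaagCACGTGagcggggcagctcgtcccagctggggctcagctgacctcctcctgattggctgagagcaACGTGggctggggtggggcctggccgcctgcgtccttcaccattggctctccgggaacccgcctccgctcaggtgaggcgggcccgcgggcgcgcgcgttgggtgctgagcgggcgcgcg
Pgam1 promoter, chr19:41911621-41911920, + strand: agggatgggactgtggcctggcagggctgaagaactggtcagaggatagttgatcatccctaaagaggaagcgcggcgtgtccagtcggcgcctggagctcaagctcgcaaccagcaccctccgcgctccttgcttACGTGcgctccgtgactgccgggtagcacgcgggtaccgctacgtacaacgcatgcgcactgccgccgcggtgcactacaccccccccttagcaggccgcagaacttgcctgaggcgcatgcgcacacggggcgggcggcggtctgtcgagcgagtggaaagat
Bnip3 promoter, chr7:138909457-138909756, - strand: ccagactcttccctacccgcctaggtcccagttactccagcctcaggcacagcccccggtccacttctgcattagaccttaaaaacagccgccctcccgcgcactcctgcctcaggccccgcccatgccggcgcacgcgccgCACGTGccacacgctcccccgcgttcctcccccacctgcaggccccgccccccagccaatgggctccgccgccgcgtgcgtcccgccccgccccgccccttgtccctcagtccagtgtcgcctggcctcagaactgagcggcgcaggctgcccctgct
Hk1 has 2 windows, of which 1 holds a match and is printed. Its matches lie 8 and 17 bases after the start of that window's transcript, and those of Hif1a 135 and 70 bases before the start. The single matches of Pgam1 and Bnip3 lie 114 and 108 bases before the start, and the one in Bnip3 and the outer one in Hif1a are part of the palindrome CACGTG, which was counted once. Ldha held the most matches, at 145, 48 and 34 bases before its start. Pfkl and Tpi1, both lower in KO at an unadjusted p of 0.05, have no match in their windows.

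**Figure D2:**
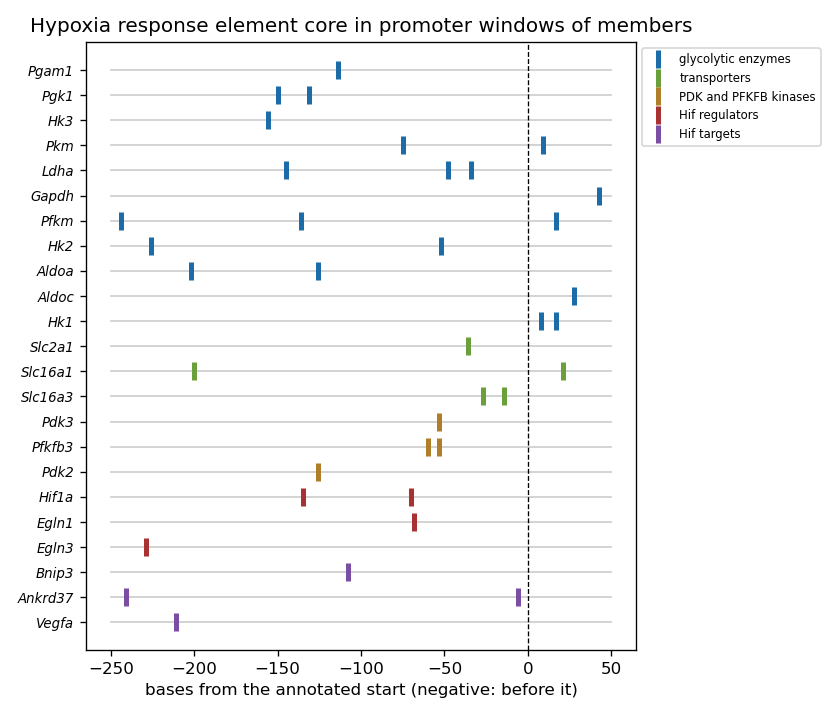
Position of each ACGTG match, on either strand, in promoter windows of the 23 members that hold one; the x axis gives bases from the annotated start and the colour the role, and several windows of a gene share its line. Matches are spread over the window, as in Ldha at 145, 48 and 34 bases before the start, and 8 and 17 bases after it in Hk1.

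The glycolytic enzymes were on the whole slightly dimmer in KO. The KO mean was below the WT mean for 15 of 18, against 51.2% of all features, with a median difference of -0.10, against -0.01. All but 1 differed by less than 1.2-fold, as did 15566 of the 19610 features. The exception was Pfkl, the liver-type subunit of phosphofructokinase, which catalyses the committed step of glycolysis. Its log2 levels were 0.92, 0.93 and 1.04 in KO, against 1.50, 1.12 and 1.43 in WT. Every KO array was below every WT array. The difference of -0.39 ± 0.12 (SE, 95% interval -0.68 to -0.10) put KO at 76.3% of WT, and the limma adjusted p was 0.37. An exact two-sided permutation test gave 0.1, the smallest p that 3 against 3 arrays allow. The other subunits, Pfkm and Pfkp, differed by -0.10 and -0.08 and overlapped between the genotypes.

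Tpi1, the triose phosphate isomerase, had log2 levels of 4.83, 4.76 and 4.66 in KO, against 5.05, 4.88 and 4.98 in WT. The genotypes did not overlap, and the difference was -0.22 ± 0.09 (SE, limma adjusted p = 0.405), or 85.9% of WT. Gapdh, the next enzyme of the pathway, read 7.58, 7.47 and 7.69 in KO, against 7.69, 7.60 and 7.77 in WT. The KO and WT values overlapped, and the difference was -0.11 ± 0.09 (adjusted p = 0.632). This brightest Gapdh probe is placed on chromosome 7, away from the probes of the gene on chromosome 6, so it may share signal with another copy. Pgk1, which makes the first ATP of the payoff phase, read 4.91, 4.94 and 4.85 in KO, against 5.16, 4.92 and 5.11 in WT. Here WT replicate 2 lay among the KO values, and the difference was -0.16 ± 0.09 (adjusted p = 0.492).

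At the end of the pathway 3 enzymes had genotypes that did not overlap, with KO below WT. This held for 5 of the 18 enzymes in all, against 10% of all features. Eno1, the main enolase, had log2 levels of 5.23, 5.25 and 5.28 in KO, against 5.42, 5.35 and 5.45 in WT. Pkm, the pyruvate kinase of most tissues outside liver and red cells, read 4.69, 4.56 and 4.67 in KO, against 4.76, 4.75 and 4.87 in WT. Each KO value of these enzymes was below each WT value. Ldha, the lactate dehydrogenase subunit that favours lactate formation, read 6.69, 6.79 and 6.61 in KO, against 6.79, 6.87 and 6.87 in WT, with the nearest arrays almost level. The differences were alike in size, -0.15 ± 0.08 for Eno1, -0.15 ± 0.08 for Pkm and -0.15 ± 0.09 for Ldha (SE), each close to 90% of WT. The limma adjusted p was 0.455 for Eno1, 0.489 for Pkm and 0.494 for Ldha. Ldhb, the subunit that favours pyruvate formation, was at 104% of WT and overlapped.

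The hexokinases, which trap glucose in the cell, did not share a direction. Hk1, the form of most tissues, had log2 levels of 8.20, 8.12 and 8.15 in KO, against 7.81, 7.97 and 8.03 in WT. All KO arrays were above all WT arrays, by 0.22 ± 0.09 (SE, 117% of WT, limma adjusted p = 0.405), but its other probes differed in the opposite direction, as described further on. Hk2, a Hif-responsive form, read 0.75, 1.47 and 0.78 in KO, against 0.99, 1.36 and 0.77 in WT. Replicate 2 was the highest in both genotypes, and the difference of -0.04 ± 0.24 was far within that spread. Hk3 differed by -0.16 ± 0.26.

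The remaining enzymes overlapped between the genotypes. Pgam1, the phosphoglycerate mutase, had the largest difference among them at -0.26 ± 0.12 (83.7% of WT, limma adjusted p = 0.434). Gpi1, Aldoa, Aldoc and Eno2 lay between -0.03 and 0.01. These are the glucose phosphate isomerase, 2 aldolases and the neuronal enolase.

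**Figure D3:**
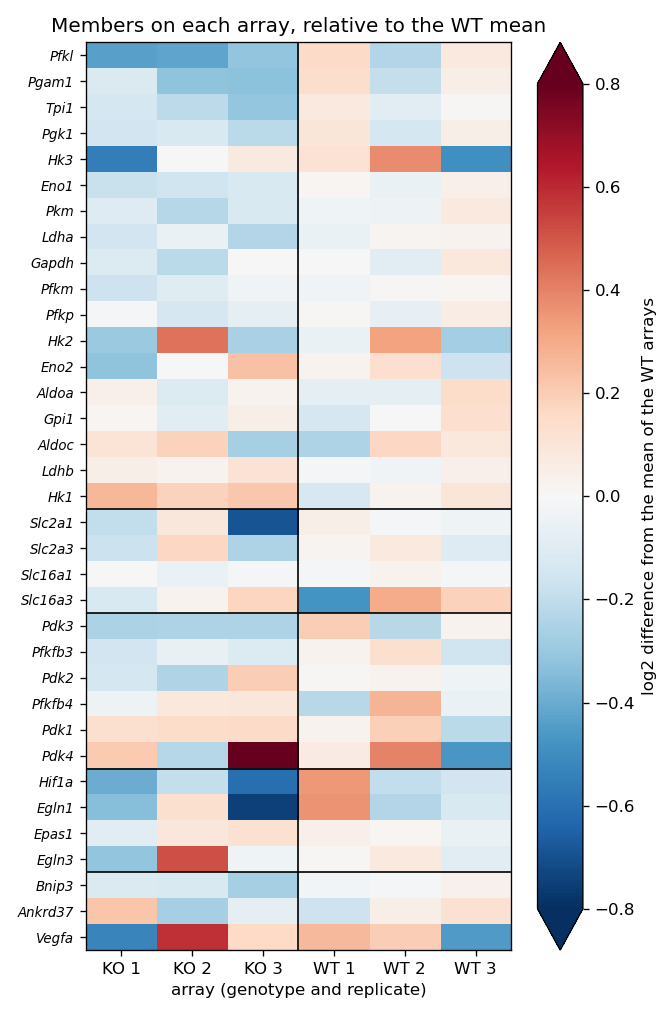
Log2 level of each of the 35 members on each of the 6 arrays, relative to the mean of the WT arrays (colour scale, blue lower and red higher); rows are genes grouped by role, columns are KO replicates 1 to 3 and WT replicates 1 to 3. The upper enzyme rows are blue on all 3 KO arrays (Pfkl, Tpi1), Hk1 is red on all 3, and rows such as Hk2, Egln3 and Vegfa alternate within a genotype.

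The transporters did not separate the genotypes. Slc2a1 (Glut1), the basal glucose carrier, had log2 levels of 2.03, 2.32 and 1.54 in KO, against 2.27, 2.21 and 2.20 in WT. The WT arrays lay close together, while KO replicate 2 was above all of them and KO replicate 3 far below, so the difference was -0.26 ± 0.19 (SE, limma adjusted p = 0.569) and -0.05 without KO replicate 3. Slc2a3 (Glut3), a carrier with high glucose affinity, read 3.74, 4.07 and 3.66 in KO, against 3.93, 3.99 and 3.81 in WT, again with KO replicate 2 highest and a difference of -0.08 ± 0.13. Slc16a3 (Mct4), which exports lactate, read 0.39, 0.54 and 0.68 in KO, against 0.03, 0.81 and 0.69 in WT. WT replicate 1 alone was low, and the difference was 0.03 ± 0.21. Slc16a1 (Mct1), which carries lactate and pyruvate, read -2.94, -3.0 and -2.96 in KO, against -2.97, -2.92 and -2.96 in WT. These levels were nearly flat, with a difference of -0.02 ± 0.07 and a 95% interval of -0.20 to 0.16. The probe was dim, and its difference depended on the processing. It was 0.08 with another background correction (normexp) and -0.12 with quantile normalization.

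The Pdk kinases phosphorylate pyruvate dehydrogenase and so hold pyruvate back from mitochondria. Pdk3 had log2 levels of 1.72, 1.72 and 1.72 in KO, against 2.16, 1.75 and 2.0 in WT. Every KO array was below every WT array, though WT replicate 2 lay close to them, and the difference was -0.25 ± 0.12 (SE, 84.2% of WT, limma adjusted p = 0.441). Pdk1, the classic Hif1a target among them, read 0.87, 0.89 and 0.90 in KO, against 0.77, 0.94 and 0.53 in WT. The KO arrays were tight and fell inside the WT range, with a difference of 0.14 ± 0.12 (adjusted p = 0.619). Pdk2 read 0.49, 0.39 and 0.82 in KO, against 0.63, 0.65 and 0.59 in WT, a difference of -0.06 ± 0.13 in which KO replicate 3 went the other way from its group. Pdk4, the form induced by fasting in other tissues, read -2.18, -2.62 and -0.84 in KO, against -2.32, -1.99 and -2.85 in WT. Its difference of 0.51 ± 0.46 (adjusted p = 0.648) rested on KO replicate 3 and was -0.01 without it.

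The Pfkfb enzymes set the level of fructose 2,6-bisphosphate, the activator of phosphofructokinase. Pfkfb3 had log2 levels of 2.40, 2.50 and 2.45 in KO, against 2.59, 2.69 and 2.40 in WT, and Pfkfb4 had levels of 1.72, 1.84 and 1.85 in KO, against 1.53, 2.03 and 1.70 in WT. Both overlapped, with differences of -0.11 ± 0.10 and 0.05 ± 0.14 (SE). Over the 6 kinases, 3 were lower and 3 higher, and the median difference was -0.01.

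Among the Hif regulators, Hif1a itself had a difference about as large as that of Pfkl, without passing the test. Its log2 levels were -0.30, -0.09 and -0.50 in KO, against 0.44, -0.10 and -0.06 in WT. KO replicate 2 was level with WT replicate 2, and WT replicate 1 was well above the rest. The difference was -0.40 ± 0.18 (SE, 95% interval -0.82 to 0.03, 76% of WT, limma adjusted p = 0.426). Without WT replicate 1, the sample low in neutrophil transcripts, it was -0.22, and the part of those cells in the difference was not tested. Within slide 1 it was -0.37 and within slide 2, with 1 array of each genotype, -0.45. Its probe to a different transcript record stayed near background on all 6 arrays.

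Epas1, the alpha subunit of Hif-2, had log2 levels of 2.64, 2.82 and 2.85 in KO, against 2.77, 2.75 and 2.67 in WT, a difference of 0.04 ± 0.09 (SE) that was -0.18 with the mean of its probes and -0.40 with its 3′-most probe. Egln1, the main oxygen-sensing hydroxylase, read -3.19, -2.72 and -3.60 in KO, against -2.49, -3.08 and -2.97 in WT. The groups overlapped widely and the probe was dim, with a difference of -0.32 ± 0.25 (limma adjusted p = 0.596) that was -0.11 without KO replicate 3 and -0.14 without WT replicate 1. Egln3, a hydroxylase that Hif itself induces, read 0.43, 1.26 and 0.71 in KO, against 0.75, 0.82 and 0.66 in WT. KO arrays stood both above and below all WT arrays, and the difference was 0.05 ± 0.20.

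The 3 Hif targets were no more uniform. Bnip3, a mitochondrial protein that promotes mitophagy, had log2 levels of 2.87, 2.87 and 2.72 in KO, against 2.97, 2.97 and 3.02 in WT. All KO arrays lay below all WT arrays, by -0.17 ± 0.08 (SE, 89.1% of WT, limma adjusted p = 0.454). Vegfa, the angiogenic growth factor, read 0.65, 1.76 and 1.34 in KO, against 1.44, 1.37 and 0.72 in WT, and Ankrd37, an ankyrin repeat protein induced by hypoxia, read -0.33, -0.82 and -0.63 in KO, against -0.72, -0.51 and -0.43 in WT. In both the genotypes overlapped over most of their range. The differences were 0.07 ± 0.31 for Vegfa and -0.04 ± 0.15 for Ankrd37.

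The enzymes and the Hif genes were set side by side without a test between them. The median over the 18 enzymes, relative to the WT mean of each gene, was -0.13, -0.10 and -0.10 on the KO arrays, against -0.0048, -0.04 and 0.05 on the WT arrays, so the genotypes did not overlap. The median over the 7 Hif regulators and targets was -0.32, 0.09 and -0.07 on the KO arrays, against 0.04, 0.02 and -0.09 on the WT arrays, and they did. Over 28 other Hif targets, described further on, it was -0.14, -0.07 and -0.18 on the KO arrays. On the WT arrays it was -0.03, 0.01 and 0.01, so there the genotypes did not overlap. The median over all features stayed between -0.02 and 0.02 on every array. The median difference was -0.10 for the enzymes and -0.04 for the Hif genes, with 15 of 18 and 4 of 7 below 0, against 51.2% of all features. This order depended on the probe and on single arrays, since the Hif median was -0.18 with the mean of all probes and -0.32 with the 3′-most probe, and the enzyme median -0.12 with either. With 1 array left out the Hif median ran from -0.18 without KO replicate 2 to -0.015 without WT replicate 2. It was -0.17 without KO replicate 1, -0.021 without KO replicate 3, -0.12 without WT replicate 1 and -0.15 without WT replicate 3. Slide by slide, the enzyme median was -0.12 on slide 1 and -0.13 on slide 2. It was -0.11 without WT replicate 1, when 16 of 18 were below 0. The Hif median was -0.10 on slide 1 and -0.19 on slide 2. The median SE of the difference was 0.09 for the enzymes and 0.18 for the Hif genes, against 0.12 over all features. Members were chosen by name with earlier results known, so no test of one list against the other was made.

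**Figure D4:**
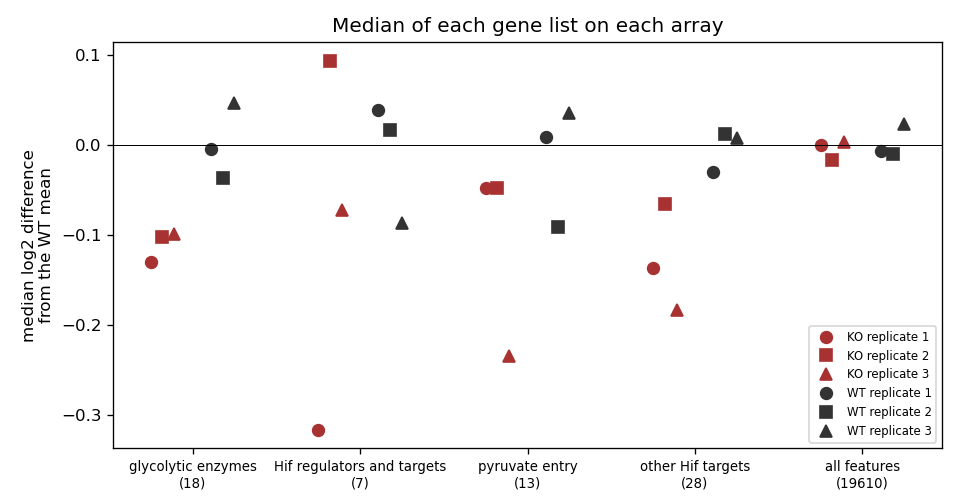
Median log2 difference from the WT mean over each gene list (x axis, number of genes in brackets) on each of the 6 arrays, with KO in red and WT in black and the symbol giving the replicate. The enzymes of the 3 KO arrays lie between -0.13 and -0.10, below the 3 WT arrays, while KO and WT arrays overlap for the Hif regulators and targets. KO and WT arrays also overlap for the 13 pyruvate entry genes. The 28 other Hif targets do not overlap, at -0.14, -0.07 and -0.18 on the KO arrays, against -0.03, 0.01 and 0.01 in WT.

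Several members carried more than 1 probe, and these did not always tell the same story. Of the 59 measured member probes, 42 (71.2%) were lower in KO on average, against 50.3% of all 27808 measured probes. At an unadjusted p of 0.05, 7 were lower and 0 higher, against 4.73% lower and 6.72% higher over all probes. None passed the adjusted threshold (limma), as 0.0324% of all probes did. All KO arrays were below all WT arrays for 13 of the 59 (22%), against 9.45% of all probes, and above them for 1, against 9.24%. Probes of 1 gene share a transcript and are not independent. In 4 enzymes the lowest difference belonged to a probe that lies upstream of the brightest probe, or, in Gapdh, upstream of the other probes on chromosome 6. In Gpi1, Pgk1 and Pfkp, which also have several probes, the brightest probe had the lowest difference. In Ldha another probe lies farther upstream still and differed by -0.12 ± 0.10 (SE) with overlap, so the order along that transcript was not even. Nor was it even in Gapdh, where the other chromosome 6 probes differed, from 5′ to 3′, by -0.23, 0.02, -0.22, -0.02 and -0.20. The 5′-most and the 3′-most of these also separated the genotypes, with KO below WT, and the rest overlapped. Sequences of the lowest probe of each of the 4 enzymes are printed because the enzyme results turn on which probe is read. They stand as the scanner files give them, with positions on mm9. These 4 probes were chosen after their values were seen.
Gapdh upstream probe, chr6:125113312-125113371, - strand: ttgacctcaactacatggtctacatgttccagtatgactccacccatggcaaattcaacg
Ldha upstream probe, chr7:54107294-54107353, + strand: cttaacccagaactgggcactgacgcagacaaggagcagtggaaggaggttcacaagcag
Tpi1 upstream probe, chr6:124761923-124761982, - strand: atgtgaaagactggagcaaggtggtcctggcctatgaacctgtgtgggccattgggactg
Hk1 upstream probe, chr10:61732717-61732776, - strand: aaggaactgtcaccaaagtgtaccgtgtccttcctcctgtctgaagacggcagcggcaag
Each reads through without a stop codon in 1 or 2 of its 3 frames. The Gapdh probe had log2 levels of 3.21, 3.39 and 3.43 in KO, against 3.79, 3.51 and 3.62 in WT, a difference of -0.30 ± 0.11 (SE). The Ldha probe read 2.92, 3.28 and 2.96 in KO, against 3.58, 3.29 and 3.36 in WT (-0.36 ± 0.14), and the Tpi1 probe read 2.19, 2.31 and 2.21 in KO, against 2.79, 2.42 and 2.54 in WT (-0.35 ± 0.12). In these 3 genes every KO array was below every WT array, and the adjusted p over all probes was 0.416, 0.42 and 0.4. The brightest probe of each had a smaller difference, -0.11 for Gapdh, -0.15 for Ldha and -0.22 for Tpi1.

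Hk1 was the member whose probes disagreed most. The upstream probe read 0.02, 0.41 and 0.19 in KO, against 0.63, 0.40 and 0.70 in WT, a difference of -0.37 ± 0.14 (SE, limma adjusted p = 0.408 over all probes). A middle probe differed by -0.10 ± 0.08, and the brightest probe, closest to the 3′ end and annotated to the mRNA record J05277, by 0.22 ± 0.09. The upstream minus the brightest probe thus gave a KO minus WT value of -0.59, across probes annotated to different transcript records. In Epas1 the probe nearer the 3′ end differed by -0.40 ± 0.15 and the brightest probe by 0.04 ± 0.10, both annotated to the same record, which gave 0.45 for the same quantity. Over 3132 genes with a pair of probes to 1 record, at least 200 bases apart, its median was 0.01 and its middle 90% ran from -0.38 to 0.40. Of the 11 members with probes at least 200 bases apart, which include pairs to different records, 5 were below 0, against 48.9% of those genes. In Bnip3, 3 probes differed by -0.17, -0.11 and -0.49, the last of them dim, and both Vegfa probes were higher on average in KO (0.35 ± 0.21 and 0.07 ± 0.31).

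**Figure D5:**
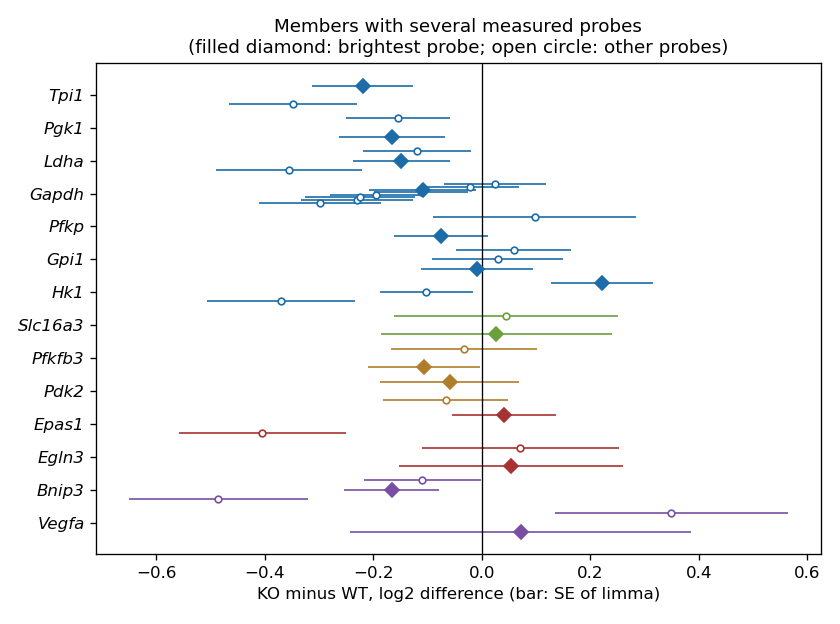
KO minus WT log2 difference (x axis, bars are SE of limma) of every measured probe of the 14 members with more than 1, grouped by gene; the filled diamond is the brightest probe and open circles are the others. The probes of Hk1 run from -0.37 to 0.22 and those of Epas1 from -0.40 to 0.04, while those of Tpi1, Pgk1, Ldha and Bnip3 are all left of 0.

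The rest of the pathway was read from lists of genes outside the 35. None of these genes passed the adjusted threshold. Of 16 measured genes of glucose and lactate handling, 10 were lower in KO (62.5%, against 51.2% of all features), and 1 was lower and 0 higher at an unadjusted p of 0.05, near the background of 5.12% and 7.06%. That gene was Pfkfb2, a relative of Pfkfb3, at -0.30 ± 0.12 (SE, limma adjusted p = 0.399). Of 13 measured genes that carry pyruvate into mitochondrial metabolism, 11 were lower (84.6%, against the same 51.2%), with a median of -0.12. On the KO arrays the median over these genes was -0.05, -0.05 and -0.23, against 0.01, -0.09 and 0.04 on the WT arrays. The genotypes thus overlapped, with KO replicate 3 the lowest. In this list Pdp2, a phosphatase that reactivates pyruvate dehydrogenase and so opposes the Pdk kinases, had log2 levels of 1.22, 1.27 and 1.29 in KO, against 1.46, 1.44 and 1.57 in WT. The groups did not overlap, and the difference was -0.23 ± 0.08 (adjusted p = 0.379).

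Of 15 measured genes of Hif control, which include Arnt, Vhl and Hif1an, 10 were lower (66.7%, against 51.2% of all features). None had an unadjusted p under 0.05, against 12.2% of all features. Only Crebbp separated the genotypes, with all KO arrays above all WT arrays, against 9.53% of all features. Its difference was 0.28 ± 0.12 (SE, limma adjusted p = 0.421). Arnt, the partner of Hif1a, differed by -0.02 ± 0.08 (SE) and Vhl, which targets Hif for degradation, by 0.02 ± 0.11. Of 28 other Hif targets, 21 (75%) were lower, against 51.2% of all features, with a median of -0.11. At an unadjusted p of 0.05, 3 were lower and 0 higher, against 5.12% and 7.06% of all features. P4ha1, a collagen prolyl hydroxylase, had the largest of these differences. Its log2 levels were -0.88, -0.71 and -0.99 in KO, against -0.26, -0.47 and 0.01 in WT. All KO arrays lay below all WT arrays by -0.62 ± 0.14 (65% of WT, limma adjusted p = 0.363). Upk1a, a uroplakin, differed by -0.43 ± 0.10 (adjusted p = 0.363) without overlap, and Ak4, a mitochondrial adenylate kinase, by -0.34 ± 0.14 (adjusted p = 0.409) with overlap.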

How the data were processed

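Total RNA of the 6 sorted samples was labelled with Cy3 and hybridised to 1-colour Agilent arrays. Per the file headers, spots were read by Agilent Feature Extraction (version 10.7.3.1). The deposited processed signal is an intensity on a linear scale, corrected for background within each array; no step between arrays is named. The deposited value table holds these intensities over a constant of each array (304 to 368), on a linear scale, uncentred, with medians of 0.0638 to 0.075.

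Each array had 59305 spots other than controls. Control spots and 92 to 155 outlier spots per array were left out, no spot was saturated, and 52.3% to 53.4% of spots were well above background. The number of arrays limits the precision. Log2 of the deposited intensity minus the 75th percentile of the array was used, with spots of a probe averaged and the brightest probe taken per gene name. Features well above background on all 3 arrays of a genotype were kept (19610). KO was compared with WT by lmFit and eBayes of limma 3.58.1 under R 4.3.3, without covariates, with Benjamini-Hochberg adjustment and a threshold of 0.05; the fit was tested on simulated data. Arrays lay on 2 slides scanned apart, replicates 1 and 2 on slide 1 and replicate 3 on slide 2.

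The genes and lists were chosen with earlier results of these data known. Values on every array are given for Hif, Pdk, Pfkfb and transporter members and for enzymes with an unadjusted p under 0.05 or no overlap, plus Gapdh, Ldha, Pgk1 and Hk2. From the other lists, up to 4 genes with an unadjusted p under 0.05 are named. Arnt, Vhl and Crebbp were added after their values were seen. Promoter sequences and the symbol Pkm come from RefSeq (GRCm38.p6); probe positions are those of the files (mm9). Same-numbered KO and WT samples deviated together with correlations of -0.03, 0.15 and 0.07, so the numbers were not taken to pair samples. Alternatives covered background correction, normalization, the deposited table, the filter, the choice of probe, slide and replicate blocks, and leaving out each array.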

Additional observations from a re-analysis of the deposited data

How the results depend on the processing

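No member passed the threshold in any of the 19 alternatives, of which 1 (within slide 2) allows no test, and the lowest adjusted p was 0.273. Of 665 member values under alternatives, 617 kept their direction. Part of this count was fixed in advance. The filters and the slide and replicate blocks left every member difference as it was, and the choice of probe cannot move a member with 1 measured probe. The deposited table and scaling to the median of detected features each moved all members by nearly the same small amount. The median of the enzymes ran from -0.13 to -0.084 with each array left out, that of all members from -0.11 to -0.043 and that of the Hif regulators and targets from -0.18 to -0.015. The Hif median was -0.18 with the mean of all probes, -0.32 with the 3′-most probe and -0.19 within slide 2. The number of members at an unadjusted p of 0.05, which was 3, was 9 with normexp, 1 with quantile normalization, 1 without a filter, 5 with the 3′-most probe, 0 within slide 1 and 1 with slide as a block. It ran from 1 to 6 with each array left out, 1 without KO replicate 3, WT replicate 1 or WT replicate 3, and 6 without WT replicate 2. With the replicate number as a block, which the pairing check did not call for, 2 members had such a p and 0 passed. The probe-end alternatives were chosen after seeing the data.

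In at least 1 alternative, 18 members changed sign. Besides small differences, these included Hk1 (0.22 in the main fit) and Pdk4 (0.51, the largest difference of any member). With normexp Aldoc was -0.010 and Slc16a1 0.081. With the mean of all probes Epas1 was -0.18, Gpi1 0.027, Hk1 -0.083 and Pfkp 0.011; with the 5′-most probe Hk1 was -0.37; with the 3′-most probe Epas1 was -0.40, Gpi1 0.059 and Pfkp 0.097. Within slide 1 Aldoa was 0.040, Ankrd37 0.040, Epas1 -0.027, Gpi1 0.030, Pdk4 -0.24, Pfkfb4 -0.0020 and Vegfa -0.20. Within slide 2 Aldoc was -0.35, Eno2 0.40, Hk2 0.011, Hk3 0.56, Pdk2 0.23, Pfkfb3 0.050 and Slc16a3 -0.0087. With each array left out, ranges that cross 0 were -0.053 to 0.060 for Aldoa, -0.11 to 0.15 for Aldoc, -0.17 to 0.076 for Ankrd37, -0.18 to 0.24 for Egln3, -0.16 to 0.12 for Eno2, -0.075 to 0.058 for Gpi1, -0.28 to 0.12 for Hk2, -0.41 to 0.036 for Hk3, -0.19 to 0.030 for Pdk2, -0.011 to 0.88 for Pdk4, -0.065 to 0.18 for Pfkfb4, -0.21 to 0.18 for Slc16a3 and -0.18 to 0.37 for Vegfa. The cause was not tested.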

Other observations

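Some Hif-responsive members shared a high array. KO replicate 2 was the highest KO array for Hk2 (1.47), Slc2a1 (2.32), Slc2a3 (4.07), Egln3 (1.26) and Vegfa (1.76), genes picked out after their values were seen. Other Hif targets did not share this. For Ankrd37 KO replicate 2 was the lowest KO array (-0.82), and for Bnip3 and Pdk1 another KO array was slightly higher. Over all 35 members KO replicate 2 was the highest KO array for 12 and the lowest for 11, so it was not high throughout. KO replicate 3 stood apart for Pdk4 and Slc2a1, and WT replicate 1 for Hif1a and Slc16a3. No relation between these values was tested.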
